A study of Arabidopsis thaliana with 12 samples.

Results

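The UDP-glycosyltransferase (UGT) genes of Arabidopsis thaliana were followed here in seeds treated with water or gibberellin. Members were taken as the probe sets that the platform annotation gives to exactly 1 gene whose symbol is UGT followed by a number, which made 47 genes in 11 families, of 22746 probe sets in all. The number after UGT is the family and the letter after it the subfamily. Of the 47, 34 lay above a signal of 16 on at least 2 of the 12 arrays and were tested, and 13 did not. All 47 matched a RefSeq gene of the same symbol through the Entrez identifier, and each is given with its locus where it is first described.

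UGTs transfer a sugar, mostly glucose, from a UDP-sugar to a small acceptor molecule. In plants the acceptors include hormones, phenylpropanoids, flavonoids, sterols and intermediates of glucosinolate synthesis, and the sugar changes how active, soluble or mobile the acceptor is. Seeds store many such conjugates, among them esters of sinapate and glycosides of flavonols. Gibberellin is the hormone that promotes germination, and abscisic acid, itself a UGT acceptor, opposes it.

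The RNA came from seeds in the Ler background, all of 1 stock. The labels give no genotype beyond that and do not name the form of gibberellin. Seeds were given water for 3, 6 or 9 h, or 5 µM gibberellin for 3, 6 or 9 h, with 2 arrays, A and B, in each of the 6 groups. The labels do not say whether A and B came from separate lots of seeds, so p-values measure only the spread between these arrays. Values are MAS5 signals, a microarray brightness on a linear scale, with a trimmed mean of 100 on every array. In whole seeds, fewer cells of a type and less RNA per cell cannot be told apart.

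On 4 arrays, the A arrays of both treatments at 3 h and 6 h, the highest signal was 3308 to 3787, against 6511 to 9143 on the other 8. Both treatments were equally represented among the 4. No array of 9 h was among them, so within a treatment 9 h and 3 h differ in ceiling as well as in time. The annotation used leaves 8730 of the 22746 probe sets without a name and gives 503 to several genes. None of 9 seed marker genes was matched to a probe set of 1 gene, so the tissue label was not checked against them. Of 6 green leaf markers 2 were matched, and both gave a signal. RCA (AT2G39730), rubisco activase, lay between 133 and 485, while LHCB4.1 (AT5G01530) of the light-harvesting antenna lay between 161 and 381. With gibberellin at 9 h their changes were -0.42 ± 0.58 (SE, adjusted p = 0.753) and -0.76 ± 0.37 (SE, adjusted p = 0.251). Their part in the results below was not tested.

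Of the 34 tested members, 21 lay above 16 on all 12 arrays and 13 on some. An array held between 24 and 31 of the 47 members above 16. Of the 13 members left out, 11 were above 16 on no array and 2 on 1. UGT71B6 (AT3G21780), which glucosylates abscisic acid, was among them, with signals of 0.269 to 8.62 over the 12 arrays. So were UGT84B1 (AT2G23260; 0.485 to 15.7) and UGT84B2 (AT2G23250; 0.453 to 5.72), which act on auxin. UGT76B1 (AT3G11340), which conjugates isoleucic and salicylic acid, lay just outside the filter: 1 array, gibberellin 9 h A at 27.5, was above 16. UGT73B5 (AT2G15480) likewise had 1 array above 16, gibberellin 9 h B at 18.3. The other 8 were UGT71B8 (AT3G21800), UGT72E3 (AT5G26310), UGT73C1 (AT2G36750), UGT73C7 (AT3G53160), UGT73D1 (AT3G53150), UGT76E1 (AT5G59580), UGT78D3 (AT5G17030) and UGT84A1 (AT4G15480). Just inside the filter, with 2 arrays above 16, were UGT71B5, UGT71C1, UGT73C2 and UGT76D1.

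**Figure D1:**
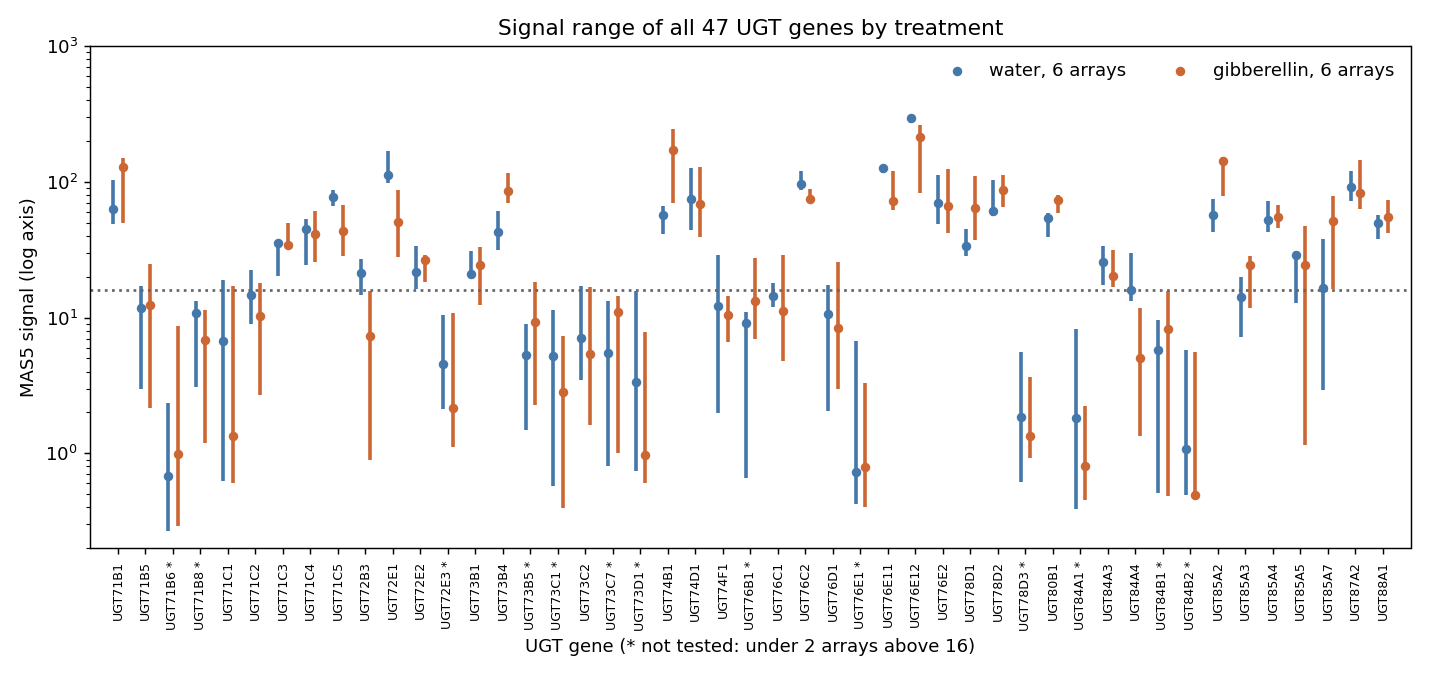
The MAS5 signal (log axis) of all 47 UGT genes, with a line from the lowest to the highest of the 6 water arrays and of the 6 gibberellin arrays of each gene and a point at the median. The dotted line marks a signal of 16, and the 13 starred genes had fewer than 2 arrays above it. Signals of different genes come from different probes and are not comparable as levels.

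Averaged over the 3 times, gibberellin moved 10 of the 34 tested members: 4 rose and 6 fell. The risers were UGT74B1, UGT73B4, UGT85A2 and UGT85A7. Those that fell were UGT72E1, UGT72B3, UGT71C5, UGT76E11, UGT76E12 and UGT84A4. These are 29.4% of the tested members. Over all 15766 tested probe sets 11.6% passed on average, 5.99% higher and 5.65% lower. UGT72B3, UGT74F1 and UGT84A4 were above 16 in water alone and so entered the test through the group where they were brighter. Without these 3, 8 of 31 members (25.8%) passed. The 11.6% still holds probe sets that entered through 1 treatment alone, so these 2 shares are not of like sets. The median change over the 34 members was -0.01 on the log2 scale, and that over all probe sets was -0.01 as well. In the 8 arrays of the high ceiling alone, where 3 h and 6 h have 1 array a group, 2 of the 10 passed, UGT74B1 and UGT73B4, and the other 8 kept their direction with adjusted p-values of 0.062 to 0.346.

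Taking all 6 water arrays against all 6 gibberellin arrays, 6 of the 34 members did not overlap: UGT73B4, UGT74B1 and UGT85A2 were higher and UGT72E1, UGT76E12 and UGT84A4 lower with gibberellin. Over all tested probe sets 5.8% did not overlap in this way, 3.2% higher and 2.61% lower. UGT84A4 was above 16 in water alone, so it entered this count through the group where it was brighter.

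**Figure D2:**
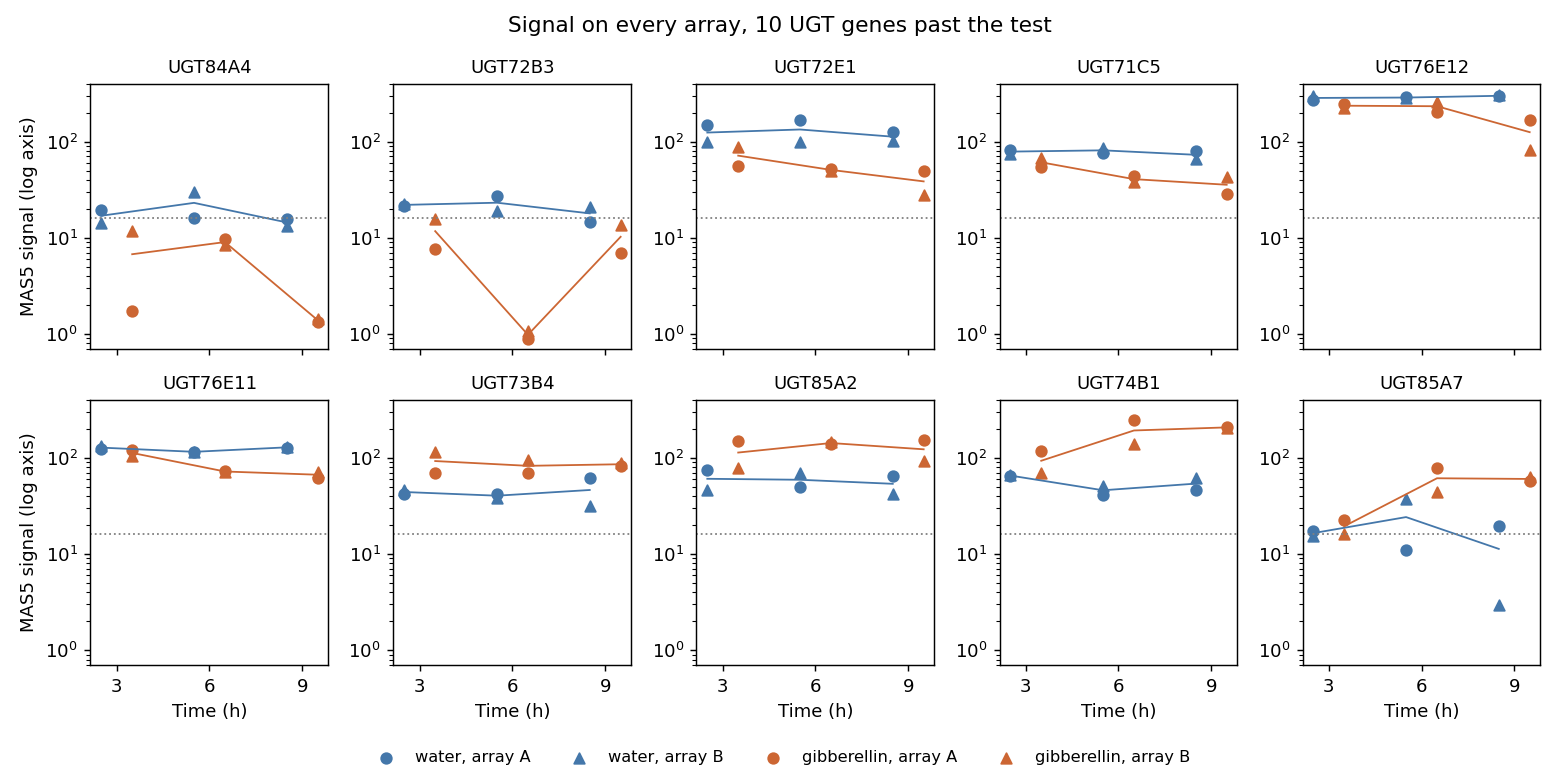
The MAS5 signal (log axis) of the 10 UGT genes that passed on average, against time in hours, with circles for A arrays, triangles for B arrays and lines through the group means. Water is blue and gibberellin orange, shifted sideways for legibility, and the dotted line marks a signal of 16. UGT74B1 in gibberellin was at 140.5 or more at 6 h and 9 h, above every water array, and UGT72B3 had its lowest signals in gibberellin at 6 h.

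Family 74 held the member with the smallest adjusted p. UGT74B1 (AT1G24100) attaches glucose to the thiohydroximate precursor of glucosinolates, the sulfur-rich defence compounds of the cabbage family. Its water signals on arrays A and B were 64.7 and 66.2 at 3 h, 41.1 and 51.0 at 6 h and 46.1 and 61.9 at 9 h. In gibberellin they were 116 and 70.2 at 3 h, 245 and 140.5 at 6 h and 212 and 203 at 9 h. Every gibberellin array was brighter than every water array, and the 3 h arrays were the closest to water. The log2 change was 0.47 ± 0.31 at 3 h (adjusted p = 1), 2.02 ± 0.31 (SE, adjusted p = 0.00782) at 6 h and 1.96 ± 0.31 (SE, adjusted p = 0.00398) at 9 h, the last a 3.88-fold rise. On average it rose by 1.48 ± 0.18 (SE, adjusted p = 0.000367). This gene passed at 9 h and on average under every alternative setting and without any 1 array. At 6 h it did not pass without water 6 h A or gibberellin 6 h A, without an intensity trend, or in the high-ceiling arrays.

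The other members of family 74 did not pass. UGT74D1 (AT2G31750), which acts on auxin and its oxidation product, had signals of 44.0 to 127 in water and 39.0 to 129 in gibberellin. Its A and B arrays stood further apart than its treatments, with 127 and 44.0 in water at 3 h. The average change was -0.20 ± 0.33 (SE, adjusted p = 0.772). UGT74F1 (AT2G43840), which glucosylates salicylic acid, was dim, with water signals of 18.04 and 28.9 at 3 h, 7.68 and 16.6 at 6 h and 1.98 and 5.44 at 9 h. In gibberellin these were 14.3 and 6.61 at 3 h, 10.1 and 7.52 at 6 h and 12.4 and 10.7 at 9 h. The water arrays were brightest at 3 h and dimmest at 9 h, while the gibberellin arrays all lay below 16. Water at 9 h against 3 h gave -2.80 ± 0.79 (SE, adjusted p = 1), or -0.99 ± 0.27 (adjusted p = 1) on the scale of log2(signal + 16), which damps the spread of dim values.

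Family 85 had 5 tested members, of which 2 rose on average. UGT85A2 (AT1G22360) had water signals of 75.1 and 46.1 at 3 h, 49.5 and 68.9 at 6 h and 65.2 and 42.3 at 9 h. With gibberellin they were 148 and 78.9 at 3 h, 140.0 and 145 at 6 h and 152 and 93.3 at 9 h. Here too the treatments stood apart on all 12 arrays, already at 3 h. The average rise was 1.12 ± 0.22 (SE, adjusted p = 0.00654), or 2.17-fold. At the single times the changes were 0.88, 1.29 and 1.18, none of which passed (adjusted p = 0.894, 0.144 and 0.0824).

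UGT85A7 (AT1G22340) gave 17.5 and 15.5 at 3 h, 10.9 and 37.6 at 6 h and 19.7 and 2.94 at 9 h in water. In gibberellin it gave 22.7 and 16.3 at 3 h, 78.5 and 44.2 at 6 h and 58.0 and 62.7 at 9 h. The 2 treatments overlapped at 3 h and were apart at 6 h and 9 h, with 1 dim water array, 9 h B. It rose at 9 h by 2.99 ± 0.78 (SE, adjusted p = 0.0411), or 1.55 ± 0.36 (adjusted p = 0.0223) with log2(signal + 16), and on average by 1.58 ± 0.45 (SE, adjusted p = 0.0428). Without that dim array the change at 9 h was 1.61 (adjusted p = 0.293). The 9 h call was also lost in the high-ceiling arrays, without an intensity trend, and without water 3 h B or any of the 4 gibberellin arrays at 6 h and 9 h. The average call held without water 6 h B and without water 9 h A, and was lost without any of the other 10 arrays (adjusted p = 0.0539 to 0.124), without a filter and without an intensity trend.

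UGT85A7, UGT85A2, UGT85A5 and UGT85A3 follow each other directly on chromosome 1, in this order, in the RefSeq annotation of TAIR10.1. The remaining pair of that run did not pass. UGT85A5 (AT1G22370) gave 28.3 and 29.3 at 3 h, 12.8 and 31.0 at 6 h and 29.8 and 27.4 at 9 h in water. With gibberellin it gave 29.5 and 44.8 at 3 h, 18.9 and 47.1 at 6 h and 1.15 and 17.0 at 9 h. The 9 h gibberellin arrays were the lowest of that treatment but far from each other, and the change there was -2.69 ± 0.97 (SE, adjusted p = 0.123), or -0.91 ± 0.36 (adjusted p = 0.159) with log2(signal + 16). Within this run the 9 h estimates ranged from -2.69 to 2.99, or from -0.91 to 1.55 with log2(signal + 16). Both ends hold 1 very dim array. UGT85A3 (AT1G22380) was dim in water at 6 h, at 7.89 and 7.19, against 23.8 and 26.8 in gibberellin. Its change at 6 h was 1.75 ± 0.50 (SE, adjusted p = 0.138), or 0.81 ± 0.25 (adjusted p = 0.162) with the offset of 16. UGT85A4 (AT1G78270), elsewhere on the chromosome, had an average change of 0.07 ± 0.15.

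In family 73, UGT73B4 (AT2G15490), which can conjugate the explosive trinitrotoluene, rose. Its water signals were 42.1 and 46.3 at 3 h, 42.6 and 38.3 at 6 h and 61.3 and 31.4 at 9 h. Gibberellin arrays gave 69.8 and 115 at 3 h, 69.7 and 95.6 at 6 h and 82.9 and 88.8 at 9 h. All 6 gibberellin arrays were brighter than all 6 water arrays, at 3 h as well as later. The change was 1.02 ± 0.34 at 3 h, 1.02 ± 0.34 at 6 h and 0.97 ± 0.34 at 9 h, and none passed alone (adjusted p = 0.682, 0.225 and 0.116). On average it rose by 1.002 ± 0.20 (SE, adjusted p = 0.00702), a 2.003-fold difference, which held in every alternative setting. UGT73B1 (AT4G34138), which accepts abscisic acid, had an average change of -0.13 ± 0.26 (SE, adjusted p = 0.81). UGT73C2 (AT2G36760) was dim, with 3.46 to 17.0 in water and 1.63 to 16.8 in gibberellin. Its average change was -0.56 ± 0.66, or -0.14 ± 0.18 with log2(signal + 16).

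Family 72 holds enzymes that glucosylate monolignols, the building blocks of lignin, and their aldehydes. UGT72E1 (AT3G50740), which acts on coniferyl and sinapyl aldehyde, fell. In water its signals were 149.6 and 98.6 at 3 h, 167 and 99.98 at 6 h and 125 and 100.3 at 9 h. In gibberellin they were 55.7 and 87.2 at 3 h, 52.0 and 49.6 at 6 h and 49.3 and 27.8 at 9 h. The groups were apart at each time, and the brightest gibberellin array, 3 h B, was below the dimmest water array. The change was -1.59 ± 0.36 (SE, adjusted p = 0.0208) at 9 h, a 3.02-fold fall, and -1.25 ± 0.21 (SE, adjusted p = 0.00251) on average. At 9 h both arrays of each group had the high signal ceiling, so the fit to those 8 arrays alone had to give the same change. The call at 9 h was lost without an intensity trend and without water 9 h A, water 9 h B or gibberellin 9 h B.

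UGT72B3 (AT1G01420) was near the filter. It gave 21.7 and 22.3 at 3 h, 27.2 and 19.2 at 6 h and 14.8 and 21.1 at 9 h in water. In gibberellin it gave 7.65 and 15.8 at 3 h, 0.890 and 1.08 at 6 h and 7.03 and 13.5 at 9 h. None of the gibberellin arrays reached 16, and both arrays at 6 h were near 1, below those at 3 h and 9 h. The change of -4.54 ± 0.70 at 6 h (adjusted p = 0.00827) was -1.20 ± 0.25 (adjusted p = 0.0361) on the scale of log2(signal + 16). The 6 h call was lost without water 6 h A or water 6 h B, in the high-ceiling arrays (adjusted p = 0.219) and in a fit to the 4 arrays of 6 h alone (adjusted p = 0.217). At 9 h the change was -0.86 ± 0.70 (SE, adjusted p = 0.543). On average it was -2.13 ± 0.41 (SE, adjusted p = 0.00587), or -0.68 ± 0.15 (adjusted p = 0.0101) with the offset. UGT72E2 (AT5G66690), which glucosylates coniferyl alcohol, lay at 16.3 to 33.8 in water and 18.4 to 28.9 in gibberellin. Its average change was 0.16 ± 0.24 (SE, adjusted p = 0.746).

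Family 84 includes the hydroxycinnamate glucosyltransferases, which make glucose esters such as sinapoylglucose. UGT84A4 (AT4G15500) was dim, with 19.6 and 14.4 at 3 h, 16.2 and 30.0 at 6 h and 15.8 and 13.1 at 9 h in water. With gibberellin it gave 1.72 and 11.8 at 3 h, 9.64 and 8.43 at 6 h and 1.35 and 1.45 at 9 h. The treatments did not overlap on any array, though 3 of the 6 water arrays and all 6 gibberellin arrays were under 16. The change at 9 h was -3.37 ± 0.95 (SE, adjusted p = 0.0544), or -0.81 ± 0.28 (adjusted p = 0.106) with log2(signal + 16), short of the threshold on both scales. On average it fell, with a log2 change of -2.18 ± 0.55 (SE, adjusted p = 0.0244), or -0.66 ± 0.16 (adjusted p = 0.0189) with log2(signal + 16). The average call was lost without water 3 h A, 3 h B, 6 h B, 9 h A or 9 h B, or without gibberellin 6 h A or 6 h B (adjusted p = 0.055 to 0.0845). UGT84A3 (AT4G15490), its direct neighbour on chromosome 4, gave 18.7 and 33.9 at 3 h, 17.4 and 31.7 at 6 h and 19.9 and 31.3 at 9 h in water. In gibberellin its signals were 18.9 and 21.4 at 3 h, 16.7 and 22.7 at 6 h and 18.9 and 31.3 at 9 h. The B arrays were the brighter ones in each group, the treatments overlapped, and the average change was -0.21 ± 0.28 (SE, adjusted p = 0.702). UGT84A1 (AT4G15480), next in the same run, was above 16 on no array, with signals of 0.386 to 8.23.

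Among the 7 tested members of family 71, UGT71C5 (AT1G07240) fell. It glucosylates abscisic acid. Water signals were 82.5 and 74.8 at 3 h, 75.6 and 86.5 at 6 h and 79.5 and 66.3 at 9 h. Gibberellin signals were 54.1 and 67.7 at 3 h, 43.7 and 37.7 at 6 h and 28.4 and 42.7 at 9 h. The groups were apart at each time and furthest at 6 h and 9 h, and over all times 1 gibberellin array, 3 h B, lay above the dimmest water array. The change was -0.38 ± 0.26 at 3 h (adjusted p = 1), -0.99 ± 0.26 at 6 h (adjusted p = 0.108) and -1.06 ± 0.26 at 9 h (adjusted p = 0.0333). On average it fell, with a change of -0.81 ± 0.15 (SE, adjusted p = 0.00557), a 1.75-fold difference. The call at 9 h was lost in the arrays of the high ceiling alone (adjusted p = 0.0799), in the 4 arrays of 9 h alone (adjusted p = 0.0832), without an intensity trend (adjusted p = 0.0552) and without water 9 h A, water 9 h B or gibberellin 9 h A.

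UGT71C4 (AT1G07250) and UGT71C3 (AT1G07260) follow UGT71C5 directly on chromosome 1, and neither passed. The average change of UGT71C4 was 0.04 ± 0.27, and that of UGT71C3 was 0.19 ± 0.20. UGT71B1 (AT3G21750) lay at 48.9 to 103 in water and 50.0 to 149 in gibberellin. All its gibberellin arrays but 3 h B were above every water array, and the average change was 0.73 ± 0.23 (SE, adjusted p = 0.068). The 3 others were dim, and none passed. UGT71B5 (AT4G15280) had an average change of 0.10 ± 0.58, UGT71C2 (AT2G29740) one of -0.71 ± 0.39 and UGT71C1 (AT2G29750) one of -1.53 ± 1.38. With log2(signal + 16) these were 0.08 ± 0.19, -0.26 ± 0.14 and -0.30 ± 0.23. In UGT71C1 the A array was the brighter one in all 6 groups, for example 17.1 and 0.602 in gibberellin at 3 h.

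In family 76, UGT76E11 (AT3G46670), which glycosylates flavonoids, and UGT76E12 (AT3G46660) fell. In the RefSeq gene order 1 other protein-coding gene lies between them. UGT76E11 was even across the water arrays, at 123 and 133 at 3 h, 116 and 115 at 6 h and 128 and 129 at 9 h. In gibberellin it went from 119 and 106 at 3 h to 72.2 and 72.1 at 6 h and 62.3 and 71.3 at 9 h. At 3 h the arrays lay close to water, and at 6 h and 9 h none came near it. The change was -0.95 ± 0.18 (SE, adjusted p = 0.0112) at 9 h and -0.60 ± 0.11 (SE, adjusted p = 0.00375) on average. The 9 h call was lost without water 9 h A, water 9 h B or gibberellin 9 h A. The gibberellin arm between 3 h and 9 h gave -0.75 ± 0.18 (SE, adjusted p = 0.109), which did not pass.

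UGT76E12 gave 272 and 296 at 3 h, 289 and 284 at 6 h and 297 and 301 at 9 h in water. In gibberellin it gave 249 and 223 at 3 h, 205 and 261 at 6 h and 168 and 82.2 at 9 h. The lowest 2 arrays were those of gibberellin at 9 h, and they differed from each other more than the water arrays did. The change was -1.35 ± 0.28 (SE, adjusted p = 0.0141) at 9 h and -0.64 ± 0.16 (SE, adjusted p = 0.0233) on average. Leaving out gibberellin 9 h B brought the 9 h change to -0.83 (adjusted p = 0.058), and the 9 h call was also lost without water 9 h A or water 9 h B. Without an intensity trend neither call of this gene held. The average call was lost without water 3 h B, any water array of 6 h or 9 h, or gibberellin 6 h A (adjusted p = 0.0528 to 0.0754).

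The other tested members of family 76 did not pass. UGT76C2 (AT5G05860) and UGT76C1 (AT5G05870), adjacent genes on chromosome 5, encode enzymes that inactivate cytokinins by N-glucosylation. UGT76C2 had 102 and 87.3 at 3 h, 99.7 and 121 at 6 h and 88.3 and 92.2 at 9 h in water and 72.3 and 80.9 at 3 h, 70.9 and 77.0 at 6 h and 88.5 and 69.4 at 9 h in gibberellin. Gibberellin arrays were the lower ones at 3 h and 6 h, while at 9 h the groups overlapped, and the average change was -0.36 ± 0.12 (SE, adjusted p = 0.087). UGT76C1 was dim, at 12.0 to 17.8 in water and 4.78 to 28.7 in gibberellin. Its average change was -0.39 ± 0.44, or -0.12 ± 0.18 with log2(signal + 16). UGT76E2 (AT5G59590) had an average change of -0.11 ± 0.21. The dim UGT76D1 (AT2G26480) had one of 0.04 ± 0.61, or 0.02 ± 0.19 with log2(signal + 16).

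No member of families 78, 80, 87 and 88 passed in any of the 7 comparisons. UGT78D1 (AT1G30530), a flavonol 3-O-rhamnosyltransferase, gave 43.2 and 31.7 at 3 h, 35.2 and 44.9 at 6 h and 30.8 and 28.4 at 9 h in water. In gibberellin it gave 76.9 and 37.4 at 3 h, 90.3 and 50.5 at 6 h and 109 and 45.0 at 9 h. Both gibberellin arrays were above both water arrays at 6 h and 9 h, and the A arrays of gibberellin were the brightest of all. The average change was 0.85 ± 0.27 (SE, adjusted p = 0.0634). UGT78D2 (AT5G17050), the flavonoid 3-O-glucosyltransferase, had group means of 83.8 ± 28.2, 57.4 ± 1.45 and 78.9 ± 29.9 in water and 93.2 ± 26.2, 90.3 ± 13.9 and 79.4 ± 20.7 in gibberellin at 3, 6 and 9 h (SD, n = 2). The average change was 0.28 ± 0.20 (SE, adjusted p = 0.415). UGT80B1 (AT1G43620), a sterol glucosyltransferase whose loss gives a pale seed coat, had group means of 55.8 ± 0.0268, 51.9 ± 10.3 and 45.7 ± 8.98 in water and 68.6 ± 2.47, 76.8 ± 2.02 and 69.1 ± 15.0 in gibberellin at 3, 6 and 9 h (SD, n = 2). Its average change was 0.49 ± 0.15 (SE, adjusted p = 0.0537), just short of the threshold. UGT87A2 (AT2G30140), known for an effect on flowering time, had group means of 90.9 ± 22.2, 104 ± 22.8 and 83.4 ± 15.5 in water and 111 ± 49.1, 85.6 ± 32.3 and 77.6 ± 17.8 in gibberellin at 3, 6 and 9 h (SD, n = 2), and an average change of -0.06 ± 0.21. UGT88A1 (AT3G16520) had group means of 47.3 ± 13.6, 50.0 ± 1.09 and 49.4 ± 9.74 in water and 52.1 ± 14.2, 49.7 ± 10.7 and 63.6 ± 14.3 in gibberellin at 3, 6 and 9 h (SD, n = 2), and an average change of 0.16 ± 0.18.

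The comparisons at single times asked when these genes differed. At 3 h no member passed with limma, 0 of 34, against 0.228% of all probe sets. An unadjusted p under 0.05 was found for 3 of the 34 and for 829 of the 15766 probe sets. At 6 h 2 of 34 passed (5.88%): UGT74B1 rose, and UGT72B3, which entered the test through water arrays alone, fell. Over all probe sets 1.48% passed at 6 h, 0.913% higher and 0.565% lower. At 9 h 6 of 34 passed (17.6%): UGT74B1 and UGT85A7 rose, and UGT71C5, UGT72E1, UGT76E11 and UGT76E12 fell. Over all probe sets 7.47% passed at 9 h, 3.79% higher and 3.69% lower. The median change of the members was 0.05 at 3 h, -0.06 at 6 h and -0.01 at 9 h, against -0.02, -0.01 and 0.00 for all probe sets. With log2(signal + 16) the counts were the same, 0, 2 and 6.

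**Figure D3:**
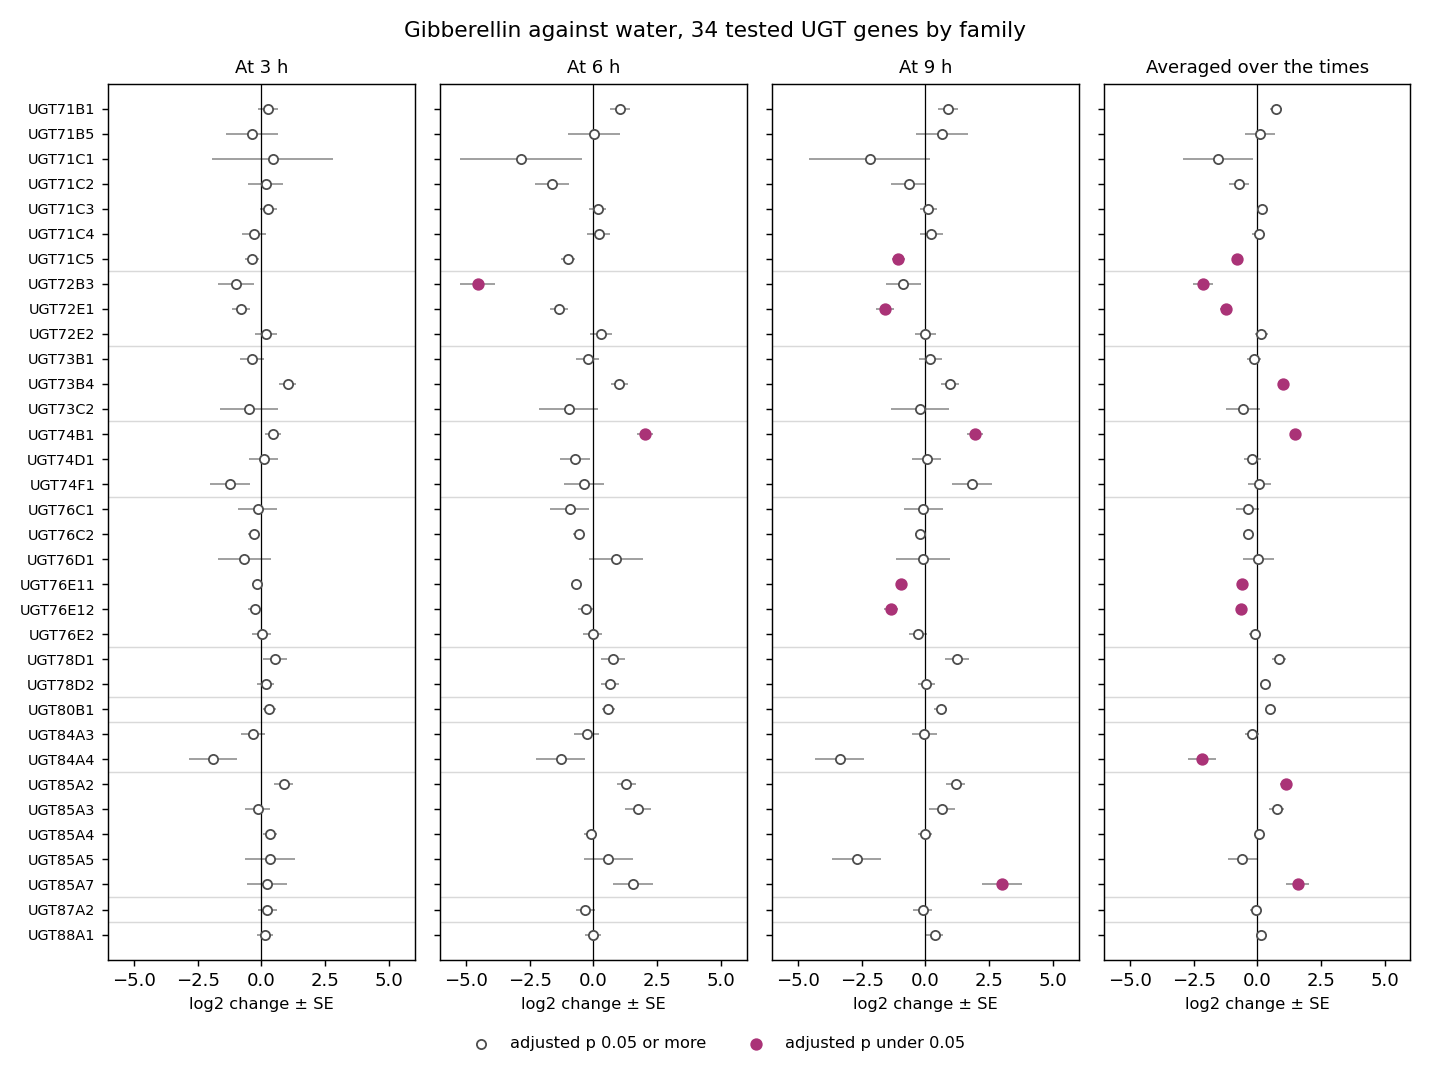
The log2 change with gibberellin (x axis, ± SE) of the 34 tested UGT genes, one row a gene and grey lines between families, at 3 h, 6 h and 9 h and averaged over the times. Filled points have an adjusted p under 0.05. There are 0 at 3 h, 2 at 6 h, 6 at 9 h and 10 on average, on both sides of 0.

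Whether gibberellin acted differently at 9 h than at 3 h was tested directly, and no member passed, 0 of 34, against 0.0127% of all probe sets. At an unadjusted p under 0.05 there were 6 of the 34, and 1074 of the 15766 probe sets. So the genes called at 9 h and not at 3 h are not shown to respond more at 9 h. The largest such difference among the 10 genes called on average was that of UGT85A7, 2.76 ± 1.11 (SE, adjusted p = 0.689), and that of UGT74B1 was 1.49 ± 0.44 (SE, adjusted p = 0.514). With log2(signal + 16), which damps the dim water 9 h B array of UGT85A7, these were 1.43 ± 0.51 and 1.29 ± 0.37. In water alone, 9 h against 3 h gave 0 of 34 members and 0% of all probe sets, with 1 member and 326 probe sets at an unadjusted p under 0.05. In gibberellin, 9 h against 3 h gave 0 of 34, against 0.488% of all probe sets, with 7 members and 2056 of the 15766 probe sets at an unadjusted p under 0.05. The closest members were UGT76E11, with -0.75, and UGT74B1, with 1.20 ± 0.31 (SE, adjusted p = 0.12).

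By acceptor, from lists chosen with earlier results of these data known, no hormone other than abscisic acid had a member that passed. Of 3 genes for abscisic acid 2 were tested and 1 fell on average, UGT71C5, where 5.65% of all probe sets were lower. Of 4 for auxin 1 was tested, of 3 for salicylic acid 1, and of 3 for cytokinin 2, and none of these passed. The 2 genes listed for brassinosteroid were not analysed here. Of 8 genes for monolignols and hydroxycinnamates 4 were tested and 2 fell on average, UGT72E1 and UGT84A4, where 5.65% of all probe sets were lower. UGT84A4 entered the test through water arrays alone and lost its call without any of 7 arrays, as given above. Of 7 listed for flavonoids 2 were tested and neither passed. That list does not hold UGT76E11, which also acts on flavonoids and fell. The 1 tested gene for glucosinolates, UGT74B1, rose on average, where 5.99% of all probe sets were higher. The 1 for sterols, UGT80B1, did not pass.

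Few genes of the surrounding pathways were matched to a probe set of 1 gene in the annotation used, and the others were not analysed here. Of 22 genes that supply UDP-sugars, 1 was matched: USP (AT5G52560), a pyrophosphorylase that makes UDP-sugars. Its signal was 73.2 ± 15.5 in water and 118 ± 4.32 in gibberellin at 9 h (SD, n = 2). That change, 0.70 ± 0.25 (SE, adjusted p = 0.114), did not pass. On average it rose by 0.66 ± 0.14 (SE, adjusted p = 0.0117). Of 21 genes that make phenylpropanoid and flavonoid acceptors 3 were matched and 2 tested. HCT (AT5G48930), a transferase of lignin precursor synthesis, fell at 9 h from 209 ± 12.0 to 99.6 ± 16.5 (SD, n = 2), a change of -1.07 ± 0.20 (SE, adjusted p = 0.00874). DFR (AT5G42800), a dihydroflavonol reductase, had 0.44 ± 0.76 (SE, adjusted p = 0.81) at 9 h. BAN (AT1G61720), an anthocyanidin reductase of the seed coat, stayed between 1.15 and 11.8 and was not tested. Of 6 genes that break down abscisic acid or release it from its glucose ester, BGLU33 (AT2G32860) alone was matched, at 0.344 to 12.1, and it was not tested. The 2 users of sinapoylglucose listed were not analysed here.

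How large a fall or rise looks depends on brightness. Of the 34 members 9 had a mean signal under 16, UGT72B3 and UGT84A4 among them. For these 2, the average change shrank from -2.13 to -0.68 and from -2.18 to -0.66 once 16 was added before the logarithm. For UGT72E1 it went from -1.25 to -1.02, and for UGT74B1 from 1.48 to 1.26. All 10 genes passed on average on both scales. On the offset scale UGT72E1 had the largest fall and UGT74B1 the largest rise.

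**Figure D4:**
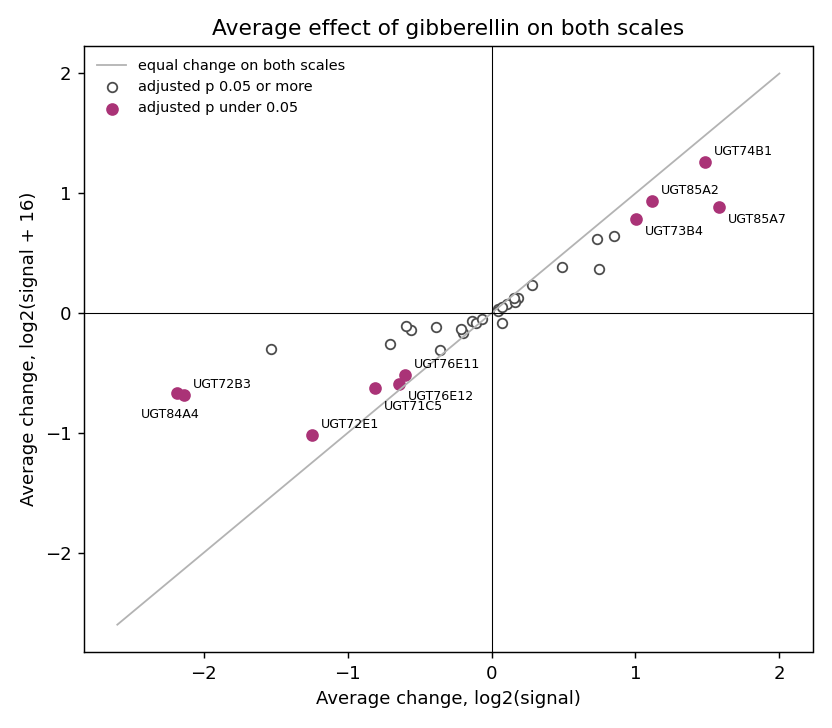
The average log2 change with gibberellin of the 34 tested UGT genes on log2(signal) (x axis) against log2(signal + 16) (y axis), with a grey line where both are equal. Filled points passed the test on log2(signal). UGT72B3 and UGT84A4, at -2.13 and -2.18 on the x axis, lie at -0.68 and -0.66 on the y axis, nearer to 0 than UGT72E1 at -1.02.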

How the data were processed

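RNA was measured on 12 one-colour arrays, 2 in each of 6 groups, a number that limits the precision. The deposited values are MAS5 intensity values on a linear scale, per the submitters' processing notes, which name no version. Signals were put on the log2 scale with no further normalization, and 64 control probe sets were left out. Probe sets needed 2 or more arrays brighter than the 40th percentile over all arrays (a signal of 16.02), which 15766 of 22746 had. A floor of exactly 16 kept the same 34 members.

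With limma 3.58.1 in R 4.3.3, all 15766 were fitted to the 6 group means (6 residual degrees of freedom, variances moderated with an intensity trend). The 7 contrasts were two-sided, with Benjamini-Hochberg adjustment across the probe sets, and the threshold was an adjusted p of 0.05. Changes are log2 differences ± SE, gibberellin minus water or later minus earlier time. The scripts were tested on simulated data.

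The rule for named genes took every member past the threshold in any contrast, with its value on every array, the member of highest mean signal in families with none, and the tested members of the acceptor lists. Other members are given by a single value or a range. The members, lists and tests were chosen with earlier results of these data known. Alternatives were an offset of 16, other filters and normalizations, other variance models, the array letter or signal ceiling as a term, subsets of arrays, and each array left out.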

Additional observations from a re-analysis of the deposited data

Results flagged for a closer look

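Of 3 probe sets that the annotation gives to a UGT and a further gene, none counts as a member, and 2 were bright enough to be tested. The one annotated to both UGT73B2 and UGT73B3, whose signals it cannot separate, lay outside the 47 genes and was brighter with gibberellin on every array, none of them overlapping the water arrays. In water it gave 84.9 and 44.6 at 3 h, 39.99 and 54.0 at 6 h and 69.7 and 50.8 at 9 h. In gibberellin it gave 177 and 144, 206 and 167, and 285 and 271. The average log2 change was 1.87 ± 0.18 (SE, adjusted p = 6.6e-05), and it also passed at 6 h (1.999 ± 0.30, adjusted p = 0.0075) and at 9 h (2.22 ± 0.30, adjusted p = 0.00172). The other tested one, which is annotated to UGT89B1 and a further locus, had an average change of -0.20 ± 0.12 (adjusted p = 0.33).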

How the results depend on the processing

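The 18 changes that passed (10 on average, 6 at 9 h and 2 at 6 h) kept their direction in all 419 pairs of a change and an alternative setting. Many settings, such as other filters or variance models, leave the estimate as it is, so its direction could not turn there. In 67 of the 419 the change fell short of the threshold. The stricter filter was scored for 15 of the 18, because UGT72B3 and UGT84A4 were too dim to be tested under it. The lower count at 6 h under that filter, given below, lacks UGT72B3 for that reason. In 3 results no refit fell short: UGT74B1 at 9 h and on average, and UGT73B4 on average. Of the 18, 7 were lost without an intensity trend, 1 without a filter, 2 of 8 in the arrays of the compared groups alone, and 12 in the 8 arrays of the high signal ceiling alone, where 3 h and 6 h have 1 array a group and the spread comes from the 9 h groups. At 6 h the count of UGT calls went from 2 to 1 with a stricter filter or no trend and to 0 in the high-ceiling arrays, and to between 0 and 2 when 1 array was left out (0 without water 6 h A). At 9 h it went from 6 to 3 with no trend, and to between 1 and 7 without 1 array (1 without water 9 h B, 2 without water 9 h A, 3 without gibberellin 9 h A). On average it went from 10 to 2 in the high-ceiling arrays. For gibberellin at 9 h against 3 h it went from 0 to 1 in the high-ceiling arrays and with the ceiling as a term, and to between 0 and 1 without 1 array. With the ceiling as a term the other counts were 2 at 6 h, 8 at 9 h and 13 on average. The share of all probe sets under that setting is not given here. With the replicate block (the letter A or B as a term) the counts were 6 at 6 h, 11 at 9 h, 14 on average and 4 for gibberellin at 9 h against 3 h, while 5.44%, 17.1%, 21.9% and 6.49% of all probe sets passed in these comparisons. The block brought in UGT71B1 (adjusted p = 0.0108), UGT76C2 (0.0489), UGT78D1 (0.00593) and UGT80B1 (0.0243) on average. At 9 h it brought in UGT73B4 (0.0489), UGT78D1 (0.0205), UGT84A4 (0.0316), UGT85A2 (0.0101) and UGT85A5 (0.0152), with the leaf marker LHCB4.1 (0.0304), and at 6 h UGT71C5 (0.0359), UGT72E1 (0.0123), UGT76E11 (0.0473) and UGT85A2 (0.0148). For gibberellin at 9 h against 3 h these were UGT74B1 (0.0182), UGT76E11 (0.0264), UGT76E12 (0.0216) and UGT85A5 (0.0183). The letter is not stated to mark a shared lot. A-minus-B differences correlated over 0.1 in 14 of 15 pairs of groups (lowest 0.08). All 12 arrays deviated most like an array of their own letter, which with 2 arrays a group is no separate evidence. The cause of these shifts was not tested. With 2 arrays a group and signals near 16, small changes of dim members were not detectable.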

Other observations

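By RefSeq gene order 24 of the 47 genes lie in 10 runs of directly adjacent members, the longest of 4. In the runs of UGT84B2 with UGT84B1 and of UGT73D1 with UGT73C7 no member was bright enough to be tested. UGT73B4 rose on average, while the adjacent UGT73B5 was above 16 on 1 array. UGT76E2 was tested, and the adjacent UGT76E1 lay between 0.405 and 6.69.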
